A study of Mus musculus with 48 samples.

Results

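The genes described here carry fatty acids into the liver cell and prepare them for metabolism. They are the 10 genes Cd36, Fabp1, Fabp2, Fabp4, Slc27a1, Slc27a2, Slc27a4, Acsl1, Acsl4 and Acsl5, named by symbol for their role, with earlier results of these data known. Of these, 9 are among the 11275 genes of the FROZ table, 8 are among the 6673 genes of the FFPE table, and the same 8 are among the 6591 genes listed in both. Slc27a4 is listed in neither table and Acsl4 is listed in FROZ but not in FFPE. The tables hold genes left after a filter on low values, so the 9 and 8 genes are those that passed it and are not all members.

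Livers came from male B6C3F1 mice, 4 weeks old, that drank water with dichloroacetic acid (DCA) for 6 days. The water held 0, 1.0, 2.0 or 3.5 g/L, and the labels give the intake of the treated mice as 198, 313 and 427 mg/kg-d. Each dose had 6 mice, each mouse gave 1 flash-frozen (FROZ) and 1 formalin-fixed paraffin-embedded (FFPE) library, and the FROZ and FFPE pieces were drawn from overlapping but not identical sets of liver lobes. After long storage, FROZ libraries were made from RNA isolated earlier and FFPE libraries from lysed sections. Fixation, storage, lobe and input therefore cannot be told apart between FROZ and FFPE. TempO-Seq counts a gene as ligated pairs of detector oligos that annealed side by side on its transcript, so a level depends on the probe as well as on the transcript, and levels of different genes are not compared here. All levels are the deposited log2(CPM + 1), where CPM is the read count of a gene scaled to the total of its library within a table, and all log2 fold changes are differences of group means on that scale, which understate the change of genes with few reads.

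Long-chain fatty acids reach the hepatocyte bound to albumin or as lipoprotein remnants. CD36 at the plasma membrane and the fatty acid transport proteins of the SLC27 family take part in their uptake. Inside the cell, small fatty acid binding proteins carry them through the cytosol, and long-chain acyl-CoA synthetases of the ACSL family join them to coenzyme A, which commits them to oxidation, storage or membrane lipid synthesis. Several of these genes are textbook targets of the nuclear receptor PPARα, which binds as a dimer with RXR to direct repeats of a hexamer spaced by a single base.

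The Fabp1 promoter is shown because, among the promoters of these genes, it alone held a form of that repeat. The promoter table (RefSeq, GRCm38.p6; 250 bases before to 50 bases after each start) has 12 entries for 9 of the 10 genes, with no entry for Fabp4. The search was for AGGTCANAGGTCA on both strands with at most 1 mismatch in the named bases, and 182 of all 32851 promoters in the table (0.554%) held such a match, 13 of them (0.0396%) without a mismatch. Of the 12 promoters, 1 had a match, that of Fabp1, on the minus strand with 1 mismatch, and it starts 67 bases before the RefSeq start at chr6:71199879. The stretch below is chr6:71199717-71199826, plus strand, which ends at the base before the Fabp1 gene of the GENCODE annotation, and capitals mark the match.
Fabp1 promoter: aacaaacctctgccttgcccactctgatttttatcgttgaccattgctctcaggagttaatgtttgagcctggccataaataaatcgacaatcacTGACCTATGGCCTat
The match is a description of letters in this window, and neither binding there nor its part in any level below was tested. The absence of a match in the other 11 promoters says only that these letters are not in those windows.

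In FROZ livers, transcripts for uptake (Cd36 and Slc27a2), binding (Fabp1) and activation (Acsl1, Acsl4 and Acsl5) were higher at the middle and the highest dose. At 427 mg/kg-d, 6 of the 9 listed genes were higher than in controls by limma (FDR under 0.05, adjusted over all genes of the table), and none was lower, against 22.7% of all genes that were higher and 7.33% that were lower. The 6 were Cd36, Fabp1, Slc27a2, Acsl1, Acsl4 and Acsl5. At 313 mg/kg-d the same 6 genes were higher and none was lower, against 20.5% and 6.15% of all genes. At 198 mg/kg-d none of the 9 passed, against 1.12% of all genes higher and 0.443% lower. There 2 had an unadjusted limma p under 0.05, in opposite directions (log2 fold change 0.47 for Fabp1 and -0.46 for Slc27a1). The share of all genes at that cutoff was not counted. The median log2 fold change of the 9 genes was 0.11, 0.54 and 0.68 at 198, 313 and 427 mg/kg-d, beside 0.07, 0.11 and 0.10 over all 11275 genes. DEGs, here FDR under 0.05 with a fold change above 2, numbered 0, 2 and 3 of the 9 at the successive doses, against 0.106%, 2.31% and 3.5% of all genes. In bulk liver, fewer cells of a type and less RNA per cell cannot be told apart, which holds for every change below.

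Scaling bears on these directions, since the median of all FROZ genes lay above 0. When libraries were rescaled by the median ratio of their genes, that median moved to -0.0030, -0.0044 and -0.0069 at the successive doses. The share of calls that were higher moved from 71.6%, 77.0% and 75.6% to 23.4%, 48.6% and 50.0% at the 3 doses. After rescaling, all 6 genes stayed higher at 427 mg/kg-d, and at 313 mg/kg-d 5 stayed higher, Acsl1 missed the threshold (log2 fold change 0.40, FDR 0.0774) and Fabp2 was lower (-0.50, FDR 0.0437).

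**Figure D1:**
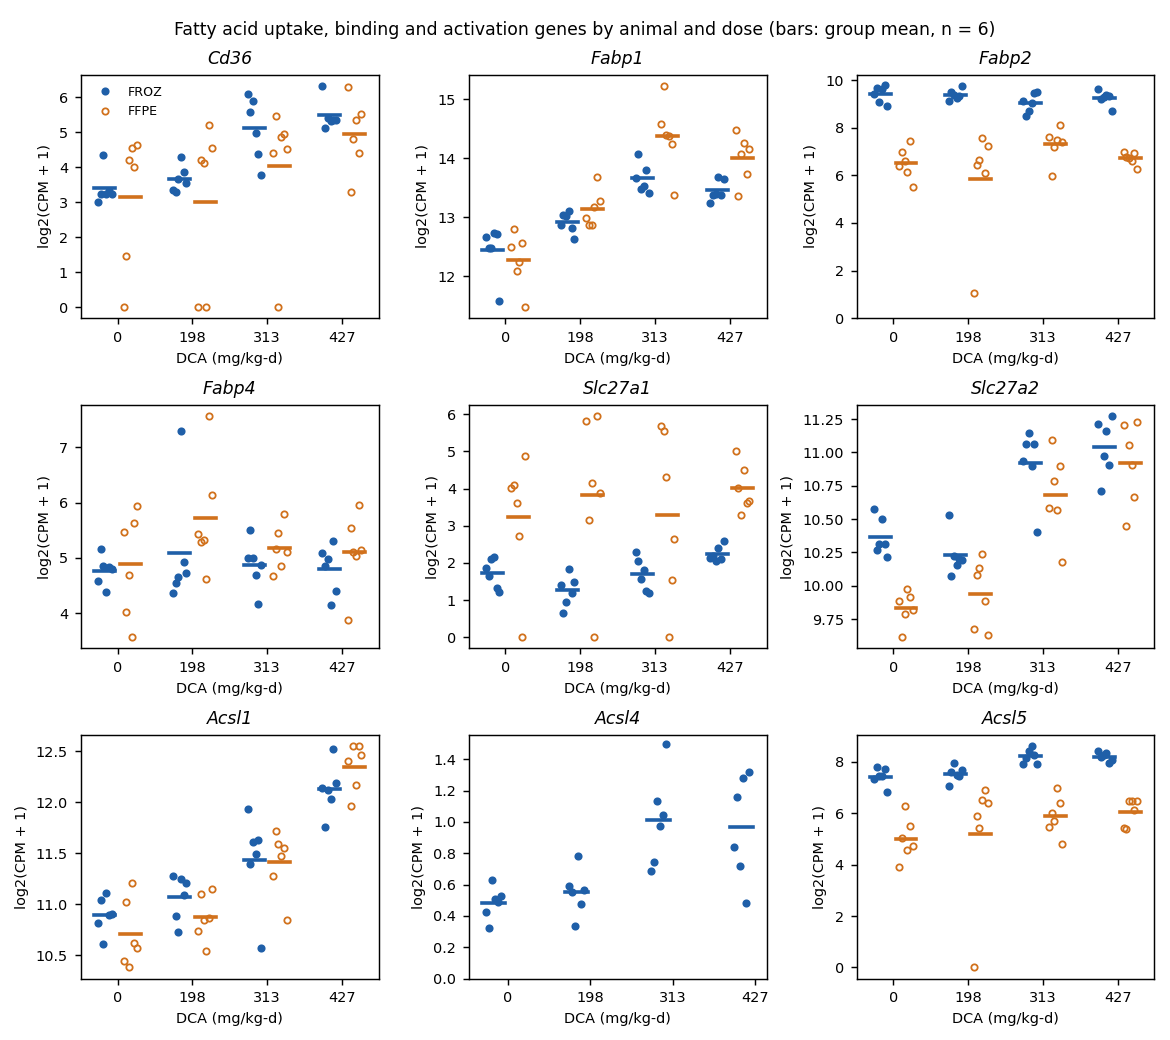
Level of each listed gene in every animal, as log2(CPM + 1), against the DCA dose in mg/kg-d, with filled blue points for FROZ, open orange points for FFPE and bars for the mean of 6 animals. The Cd36, Fabp1, Slc27a2, Acsl1, Acsl4 and Acsl5 points of FROZ sit higher at 313 and 427 mg/kg-d, the Fabp2 and Fabp4 points overlap at every dose, and open points at 0 are FFPE libraries in which a gene is listed at 0. The vertical axes differ between panels, and levels are not compared between genes.

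Cd36 (chr5:17781690-17888801, minus strand, GRCm38) encodes the scavenger receptor and fatty acid translocase of the plasma membrane. Cd36 lay at 3.02 to 4.36 (median 3.24) in controls, 3.29 to 4.29 (median 3.60) at the lowest dose, 3.77 to 6.08 (median 5.29) at the middle dose and 5.12 to 6.33 (median 5.35) at the highest dose. All 6 animals at 427 mg/kg-d lay above all 6 controls, while at 313 mg/kg-d animal 78 at 3.77 lay below the highest control, animal 5 at 4.36. The mean rose from 3.40 ± 0.48 (SD, n = 6) to 5.48 ± 0.43, a log2 fold change of 2.08 ± 0.30 (SE), or 4.23-fold, with FDR 5.7e-06. At 313 mg/kg-d the log2 fold change was 1.71 ± 0.30 with FDR 0.000114, and the SD of 0.91 was the widest among the FROZ groups of this gene. Reads on Cd36 ran from 62 to 179 in controls and from 296 to 703 at 427 mg/kg-d. Cd36 probes were attenuated in the assay equally across samples.

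Cd36 is also made by endothelial cells, macrophages and adipocytes. The 7 endothelial markers summed to 144 to 172 CPM in FROZ controls and 124 to 142 CPM at 427 mg/kg-d. Of the 7, 1 (Stab2) was lower by limma (-0.66, FDR 1.69e-05), against 7.33% of all genes. After rescaling 3 of the 7 were lower, where 2847 of all 11275 genes were called and 50.0% of these calls were higher. The 5 listed Kupffer cell markers of 7 summed to 67.5 to 104 CPM in controls and 55.0 to 74.9 CPM at 427 mg/kg-d. Of the 5, 3 (Adgre1, Cd5l and Csf1r) were lower by limma, against the same 7.33% of all genes. The medians of these sums went from 151 to 130 CPM and from 93.0 to 67.3 CPM, both down at this dose while Cd36 was up. At 313 mg/kg-d, where Cd36 was already higher, the medians were 123 CPM for the endothelial and 93.1 CPM for the Kupffer cell sum. There 2 of the 7 endothelial markers were lower, against 6.15% of all genes, and no Kupffer cell marker was called. Endothelial markers were also mixed at 427 mg/kg-d, where Pecam1 (0.13) and Lyve1 (0.23) had positive log2 fold changes, not called, and the others negative ones. Of 7 adipocyte markers, Adipoq, Plin1, Cfd, Lep, Retn and Adig are not listed in either table, and Car3, which hepatocytes also express, ranged from 169 to 735 CPM in controls and from 272 to 433 CPM at 427 mg/kg-d. Any part of these cells in the Cd36 change was not tested.

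Slc27a2 (chr2:126552407-126588243, plus strand) encodes the very long-chain acyl-CoA synthetase of peroxisomes and endoplasmic reticulum, also called FATP2, and is the second uptake gene that rose. The 6 controls had Slc27a2 at 10.22 to 10.58 (median 10.31), against 10.07 to 10.53 (median 10.20) with 198 mg/kg-d, 10.41 to 11.15 (median 11.00) with 313 mg/kg-d and 10.71 to 11.27 (median 11.07) with 427 mg/kg-d. The 427 mg/kg-d animals all lay above the controls, and at 313 mg/kg-d 5 animals did while animal 78 at 10.41 lay inside the control range. The log2 fold change was 0.55 ± 0.12 (FDR 0.000776) at 313 mg/kg-d and 0.68 ± 0.12 (FDR 5.52e-05) at 427 mg/kg-d, or 1.6-fold, which is below the fold change a DEG needs. At 198 mg/kg-d it was -0.14 ± 0.12 with FDR 0.587.

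Slc27a1 (chr8:71568882-71587302, plus strand) encodes FATP1, the transport protein best known from muscle and fat. It was measured with 5 to 40 reads per FROZ library. Its controls ranged over 1.22 to 2.17 (median 1.76), the 198 mg/kg-d mice over 0.67 to 1.85 (median 1.30), the 313 mg/kg-d mice over 1.20 to 2.30 (median 1.68) and the 427 mg/kg-d mice over 2.05 to 2.58 (median 2.17). The 427 mg/kg-d animals overlapped the controls, and the log2 fold change of 0.53 ± 0.20 had FDR 0.0527. It was -0.46 (FDR 0.243) at 198 mg/kg-d and -0.03 (FDR 0.932) at 313 mg/kg-d, so no Slc27a1 contrast with control passed the test, and 1.43% of the 50-base windows of its transcripts also occur in another gene, most often Fam229b. The 427 mg/kg-d call depended on single controls: without animal 5 the FDR was 0.0349 and without animal 6 it was 0.0301.

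Among the binding proteins, Fabp1 (chr6:71199827-71205023, plus strand), the abundant liver fatty acid binding protein, rose, and Fabp2 and Fabp4 did not. Fabp1 lay at 11.59 to 12.74 (median 12.58) in controls, 12.63 to 13.10 (median 12.95) at the lowest dose, 13.42 to 14.07 (median 13.59) at the middle dose and 13.25 to 13.69 (median 13.39) at the highest dose. The animals at 313 and at 427 mg/kg-d all lay above every control, and at 198 mg/kg-d the groups overlapped. The mean was 12.45 ± 0.43 in controls, 12.92 ± 0.18 at the lowest dose, 13.66 ± 0.24 at the middle dose, where it was highest, and 13.46 ± 0.17 at the top dose. The log2 fold change was 0.47 ± 0.16 (FDR 0.12) at 198 mg/kg-d, 1.21 ± 0.16 (FDR 3.58e-06) at 313 mg/kg-d and 1.01 ± 0.16 (FDR 2.22e-05) at 427 mg/kg-d. The last is 2.01-fold, at the edge of the DEG rule, and 2 rather than 3 of the 9 genes were DEGs at 427 mg/kg-d after rescaling, where Fabp1 was at 0.86. The promoter printed above belongs to this gene.

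Fabp2 (chr3:122895072-122899506, plus strand) encodes the intestinal fatty acid binding protein, and in these livers it is listed with 2648 to 8732 reads per FROZ library. The 6 controls had Fabp2 at 8.89 to 9.79 (median 9.51), against 9.12 to 9.73 (median 9.35) with 198 mg/kg-d, 8.49 to 9.49 (median 9.09) with 313 mg/kg-d and 8.71 to 9.63 (median 9.30) with 427 mg/kg-d. Groups overlapped at every dose, with log2 fold changes of -0.03, -0.36 and -0.15 and FDR of 0.963, 0.124 and 0.548 at the successive doses. The 95% interval at 427 mg/kg-d ran from -0.50 to 0.20. None of the 6 enterocyte markers (Vil1, Alpi, Sis, Lgals4, Cdx1 and Cdx2) is listed in either table.

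Fabp4 (chr3:10204088-10208576, minus strand) encodes the adipocyte fatty acid binding protein, which macrophages and endothelial cells also make, and its probes were attenuated. Its controls ranged over 4.38 to 5.17 (median 4.82), the 198 mg/kg-d mice over 4.37 to 7.29 (median 4.69), the 313 mg/kg-d mice over 4.18 to 5.51 (median 4.93) and the 427 mg/kg-d mice over 4.16 to 5.30 (median 4.91). Doses overlapped throughout, and the log2 fold change at 427 mg/kg-d was 0.02 ± 0.33 (FDR 0.969), with a 95% interval from -0.64 to 0.69. A single FROZ library stood apart, that of animal 52 at 198 mg/kg-d, at 7.29 where the next highest of all 24 was 5.51. In that library Car3, which hepatocytes also express, was at 9.30 on the same log2 scale. That was inside the control range and the highest of the 198 mg/kg-d group, and the other adipocyte markers are not listed. Prkar2b and Arxes2 also stood above all other FROZ libraries there. They were looked up after the Fabp4 value was seen, and no other library was searched in this way. The FFPE library of the same mouse had Fabp4 at 4.61, the lowest of its group. Any part of adipocytes in the FROZ value was not tested.

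The activation genes were led by Acsl1 (chr8:46471037-46536051, plus strand), the main long-chain acyl-CoA synthetase of liver. Acsl1 lay at 10.61 to 11.11 (median 10.90) in controls, 10.72 to 11.28 (median 11.14) at the lowest dose, 10.57 to 11.94 (median 11.55) at the middle dose and 11.76 to 12.53 (median 12.12) at the highest dose. Each 427 mg/kg-d animal lay above every control, while at 313 mg/kg-d animal 78 at 10.57 lay below all 6 controls and the other 5 lay above them. The mean rose from 10.90 ± 0.18 in controls to 11.44 ± 0.46 and 12.12 ± 0.25, with log2 fold changes of 0.54 ± 0.16 (FDR 0.0142) and 1.23 ± 0.16 (FDR 1.61e-06), the latter 2.34-fold.

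Acsl5 (chr19:55251938-55297720, plus strand), a synthetase of mitochondria and endoplasmic reticulum, was higher by about the same amount at both higher doses. The 6 controls had Acsl5 at 6.80 to 7.80 (median 7.44), against 7.04 to 7.95 (median 7.53) with 198 mg/kg-d, 7.90 to 8.61 (median 8.20) with 313 mg/kg-d and 7.94 to 8.43 (median 8.22) with 427 mg/kg-d. All animals of both higher doses lay above all controls. Relative to controls it was up by 0.79 ± 0.15 (FDR 0.000301) at 313 mg/kg-d and 0.78 ± 0.15 (FDR 0.000237) at 427 mg/kg-d, about 1.72-fold.

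Acsl4 (chrX:142317993-142390535, minus strand), which prefers arachidonic acid, was measured with 2 to 14 reads per FROZ library. Its controls ranged over 0.32 to 0.63 (median 0.50), the 198 mg/kg-d mice over 0.34 to 0.78 (median 0.56), the 313 mg/kg-d mice over 0.69 to 1.50 (median 1.01) and the 427 mg/kg-d mice over 0.49 to 1.32 (median 1.00). All animals at 313 mg/kg-d lay above the controls, and at 427 mg/kg-d animal 101 at 0.49 lay inside the control range. It was up by 0.53 ± 0.14 (FDR 0.00722) and 0.48 ± 0.14 (FDR 0.0112). On the CPM scale the mean was 0.402 ± 0.0986 in controls and 1.00 ± 0.45 (SD, n = 6) at 427 mg/kg-d, where the offset of 1 weighs most.

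Animals did not overlap with controls, on the higher side, for 0, 3 and 5 of the 9 genes at 198, 313 and 427 mg/kg-d, against 1.41%, 9.14% and 11.4% of all genes.

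**Figure D2:**
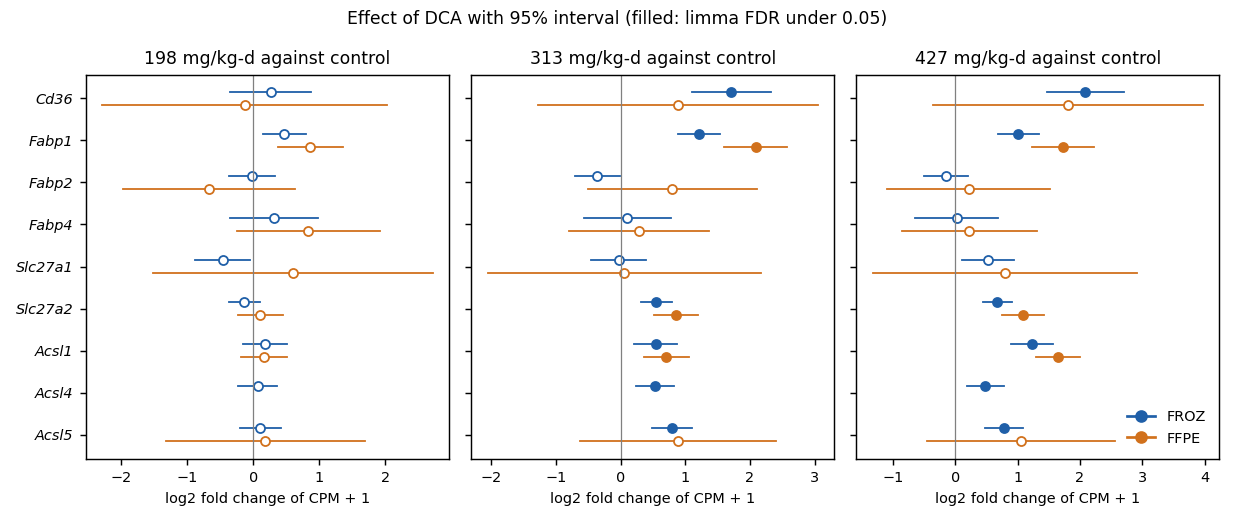
Log2 fold change of CPM + 1 against controls for each listed gene at 198, 313 and 427 mg/kg-d (panels), in FROZ (blue) and FFPE (orange), with lines for the 95% interval and filled points for limma FDR under 0.05. In FROZ 6 genes are filled at 313 and at 427 mg/kg-d, in FFPE 3 are (Fabp1, Slc27a2 and Acsl1), and the FFPE intervals of Cd36, Slc27a1, Fabp2 and Acsl5 are wide.

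Between neighbouring doses, more of these genes changed from 198 to 313 mg/kg-d than from 313 to 427 mg/kg-d. From 198 to 313 mg/kg-d, 5 of the 9 FROZ genes were higher, against 8.05% of all genes. They were Cd36 (1.45 ± 0.30, FDR 0.00189), Fabp1 (0.74 ± 0.16, FDR 0.00288), Slc27a2 (0.69 ± 0.12, FDR 0.00022), Acsl4 (0.46 ± 0.14, FDR 0.0352) and Acsl5 (0.68 ± 0.15, FDR 0.00323). The Acsl4 step rested on few reads and lost its call when any of 6 animals (49, 51, 53, 75, 77 or 78) was left out. From 313 to 427 mg/kg-d, 1 gene was higher, against 1.73% of all genes, and it was Acsl1 (0.69 ± 0.16, FDR 0.0174). Without animal 101 that Acsl1 step was 0.61 with FDR 0.0507. For Cd36, Fabp1, Slc27a2, Acsl4 and Acsl5 the 313 to 427 mg/kg-d difference did not pass, with 95% intervals from -0.25 to 0.98, -0.53 to 0.13, -0.12 to 0.36, -0.34 to 0.25 and -0.32 to 0.30. With the dose as a number, 6 of the 9 slopes passed and all 6 were rising, against 24.4% of all genes, led by Cd36 at 0.53 log2 units per 100 mg/kg-d, then Acsl1 and Fabp1 at 0.27 each, Acsl5 at 0.21, Slc27a2 at 0.18 and Acsl4 at 0.13.

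Within the 313 mg/kg-d group a single mouse, animal 78, lay closest to the controls. In FROZ it was the lowest of 6 for Cd36, Fabp1, Slc27a1, Slc27a2, Acsl1 and Acsl5 (6 of 9 genes) and the highest for Fabp2 and Acsl4. In FFPE it was the lowest for Fabp1, Slc27a2, Acsl1 and Acsl5 (4 of 8 genes). Over the 392 other FROZ genes that were DEGs at 427 mg/kg-d, the part of the 427 mg/kg-d effect reached by animal 78 was 0.502, beside 0.618 to 0.836 in the other 5 mice of its group. Over the 118 such FFPE genes the part was 0.503 in animal 78, beside 0.544 (animal 77) to 0.803 (animal 73) in the other 5 mice. The 198 to 313 mg/kg-d step of Acsl1, 0.37 ± 0.16 with FDR 0.142, became 0.54 with FDR 0.00595 without this animal.

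**Figure D3:**
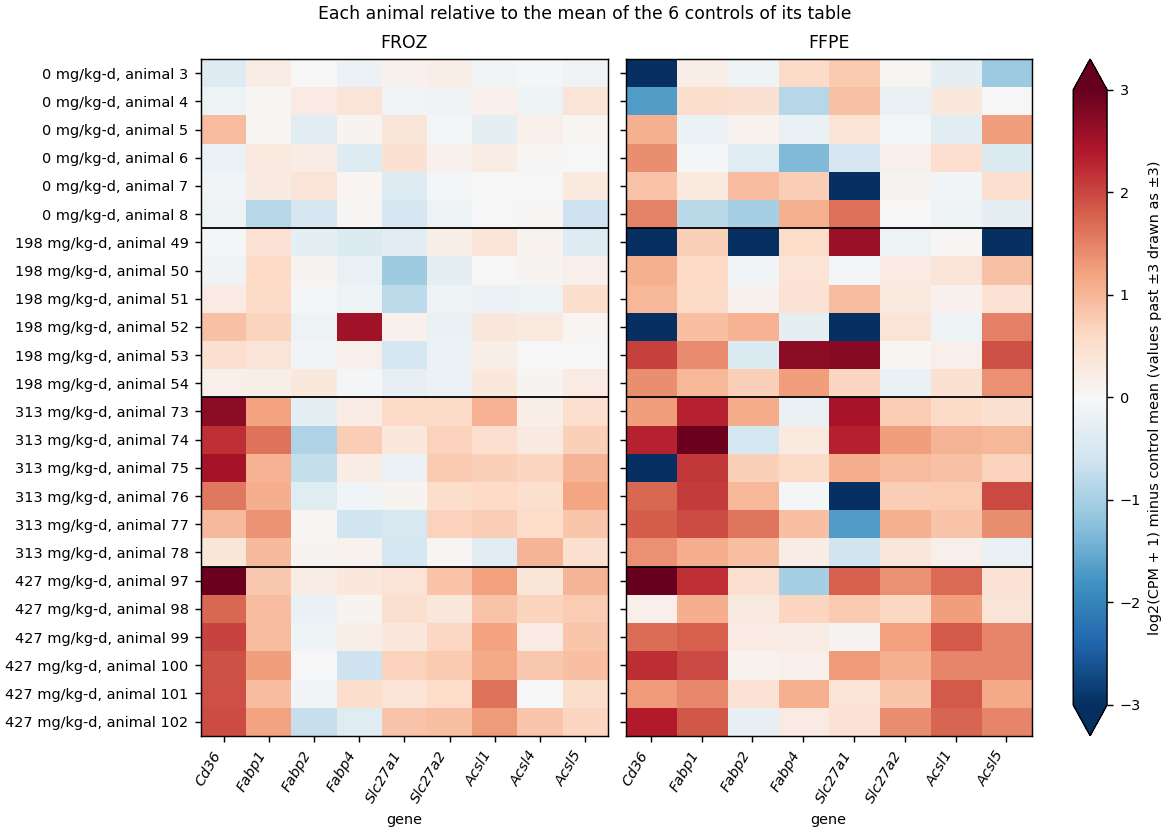
Each cell is the log2(CPM + 1) of 1 animal minus the mean of the 6 controls of the same table, for the listed genes (columns) and 24 animals ordered by dose (rows), FROZ on the left and FFPE on the right, with red above and blue below the control mean. In FROZ the Cd36, Fabp1, Slc27a2, Acsl1 and Acsl5 columns turn red from 313 mg/kg-d with animal 78 paler, and in FFPE the dark blue cells of Cd36, Slc27a1, Fabp2 and Acsl5 are libraries at or near 0.

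In FFPE livers the same mice showed the change for 3 genes. At 427 mg/kg-d, Acsl1, Fabp1 and Slc27a2, 3 of the 8 listed genes, were higher and none was lower, against 1.54% and 0.869% of all 6673 genes. At 313 mg/kg-d the same 3 were higher and none was lower, against 0.764% and 0.315% of all genes. At 198 mg/kg-d none of the 8 passed by limma, against 0.03% of all genes in each direction. There 1 (Fabp1, higher) had an unadjusted limma p under 0.05, a cutoff at which all genes were not counted. DEGs numbered 0, 1 and 3 of the 8 at the successive doses, against 0.0599%, 0.809% and 1.81% of all genes. The median log2 fold change of the 8 was 0.17, 0.83 and 1.07, beside -0.19, -0.12 and 0.18 over all genes of the table. Animals of a dose lay wholly above controls for 1, 2 and 3 of the 8 genes, against 0.195%, 0.959% and 2.94% of all genes. The summed CPM of the 5 listed hepatocyte markers of 7, which follows the most abundant of them, went the other way in FFPE. It was 37736 to 50287 CPM (median 44608) in controls and 26086 to 31133 CPM (median 28043) at 427 mg/kg-d, with no overlap. By limma 1 of the 5, Apoa1, was lower (-0.79, FDR 0.00779). Alb (-0.61) and Apob (-0.56) had negative log2 fold changes and Ttr (0.61) and Hnf4a (0.26) positive ones, none of which passed. At 313 mg/kg-d the sum was 36863 to 43449 CPM (median 37150), which overlapped the controls. In FROZ the median sum of the 6 listed markers was 25647 CPM in controls and 21152 CPM at 427 mg/kg-d, with overlap. Apoa1 alone averaged 19464 CPM in FROZ controls. Any part of the FFPE shift in the changes of the 3 genes was not tested.

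Fabp1 in FFPE had the largest change of the 8 at 313 mg/kg-d. Fabp1 lay at 11.48 to 12.81 (median 12.37) in controls, 12.87 to 13.69 (median 13.09) at the lowest dose, 13.38 to 15.23 (median 14.39) at the middle dose and 13.37 to 14.48 (median 14.11) at the highest dose. At every dose all 6 animals lay above the highest control. Its log2 fold change was 0.87 ± 0.24 (FDR 0.197) at 198 mg/kg-d, 2.09 ± 0.24 (FDR 5.97e-07), or 4.25-fold, at 313 mg/kg-d and 1.73 ± 0.24 (FDR 1.04e-05) at 427 mg/kg-d.

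The 6 controls had Acsl1 at 10.38 to 11.21 (median 10.59), against 10.54 to 11.15 (median 10.85) with 198 mg/kg-d, 10.85 to 11.72 (median 11.51) with 313 mg/kg-d and 11.96 to 12.55 (median 12.43) with 427 mg/kg-d. For Acsl1 the 427 mg/kg-d animals lay above all controls and above all 313 mg/kg-d animals, while animal 78 kept the 313 mg/kg-d group within reach of the controls. The log2 fold change was 1.64 ± 0.17 (FDR 3.92e-08) at 427 mg/kg-d and 0.70 ± 0.17 (FDR 0.028) at 313 mg/kg-d, and the latter call was lost under several alternatives, among them leaving out animal 3, 5, 7 or 8 of the controls or 74, 75, 76 or 77 of the dose group, with FDR of 0.0579 to 0.109. The 313 to 427 mg/kg-d step of Acsl1 was 0.94 ± 0.17 with FDR 0.00466, the 1 member call of that step in FFPE, against 0.12% of all genes.

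Slc27a2 in FFPE ranged in controls over 9.61 to 9.98 (median 9.85), the 198 mg/kg-d mice over 9.63 to 10.24 (median 9.98), the 313 mg/kg-d mice over 10.18 to 11.09 (median 10.68) and the 427 mg/kg-d mice over 10.45 to 11.23 (median 10.98). All Slc27a2 values at 313 and 427 mg/kg-d lay above the controls. Its log2 fold change was 0.85 ± 0.17 (FDR 0.00321) at 313 mg/kg-d and 1.09 ± 0.17 (FDR 5.74e-05) at 427 mg/kg-d, and the 313 mg/kg-d call was lost with a variance prior that ignores the mean (FDR 0.102). From 198 to 313 mg/kg-d, Slc27a2 (0.74 ± 0.17, FDR 0.0177) and Fabp1 (1.22 ± 0.24, FDR 0.00519) were higher, 2 of the 8 genes against 0.809% of all genes. Without animal 74 the Slc27a2 step had FDR 0.0541, which left 1 call, and without animal 78 Acsl1 joined them (0.65, FDR 0.0496), which made 3. The dose slopes of Fabp1, Acsl1 and Slc27a2 were 0.47, 0.37 and 0.27 log2 units per 100 mg/kg-d, the 3 of 8 that passed, all rising, against 1.51% of all genes.

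Cd36 and Acsl5, called in FROZ, were not called in FFPE. Cd36 is listed at 0 in the FFPE libraries of control animal 3, of animals 49 and 52 at 198 mg/kg-d and of animal 75 at 313 mg/kg-d, and its other FFPE values ran from 1.47 to 6.30. The log2 fold change at 427 mg/kg-d was 1.81 ± 1.06 (FDR 0.77), with a 95% interval from -0.35 to 3.97 that holds the FROZ value of 2.08. Acsl5 lay at 3.91 to 6.26 (median 4.87) in controls, 0.00 to 6.91 (median 6.12) at the lowest dose, 4.80 to 6.97 (median 5.85) at the middle dose and 5.38 to 6.47 (median 6.30) at the highest dose. Its log2 fold change at 427 mg/kg-d was 1.06 ± 0.74 (FDR 0.88), with a 95% interval from -0.45 to 2.57 that holds the FROZ value of 0.78. A Cd36 or Acsl5 change of the FROZ size therefore lies within the FFPE intervals. The libraries at 0 for Cd36 were not always those with few reads, since animal 3 had 4.57 M reads in all and none on Cd36, while animal 54 had 2.78 M in all and 62 on Cd36. They did have many genes at 0: 791, 1580, 1151 and 898 in animals 3, 49, 52 and 75, against a median of 313.5 in FFPE. Animals 53, 54, 73 and 77, with 960, 1001, 1439 and 851, held Cd36 reads. At 427 mg/kg-d the range was 65 (animal 99) to 249 (animal 101). Any part of these unequal zeros in the FFPE contrasts was not tested.

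Slc27a1 is listed at 0 in FFPE animals 7, 52 and 76, and its other values ran from 1.53 to 5.96 with no dose passing (FDR 0.848, 0.991 and 1). Fabp2 in FFPE had log2 fold changes of -0.67, 0.80 and 0.22, none of which passed, and its library of animal 49 at 1.06 held 2 reads. Fabp4 in FFPE was highest in animal 53 at 7.56, whose FROZ library was at 4.93, and its log2 fold changes of 0.84, 0.29 and 0.22 did not pass.

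The effect of DCA did not pass a test of difference between FROZ and FFPE for any of the 8 genes at any dose. With limma on within-animal differences (FFPE minus FROZ), 0 of 8 genes had FDR under 0.05 at each dose, against 0.0303%, 0% and 0.0303% of all 6591 genes at 198, 313 and 427 mg/kg-d. At an unadjusted p under 0.05 the counts were 0, 1 and 1, against 11.4%, 7.39% and 2.22% of all genes, and both were Fabp1. The Fabp1 effect was larger in FFPE by 0.88 ± 0.28 at 313 mg/kg-d (adjusted p 0.507, 95% interval 0.31 to 1.45) and by 0.72 ± 0.28 at 427 mg/kg-d (adjusted p 1.00, 95% interval 0.15 to 1.29). For Cd36 the interval at 427 mg/kg-d ran from -2.57 to 2.02, for Acsl1 from -0.07 to 0.90 and for Slc27a2 from -0.04 to 0.86, so a miss of the threshold does not show equal effects.

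Some mice were the extreme one of their dose in both tables. Over the 8 genes and 4 dose groups, the highest animal of 6 was the same in 10 of 32 groups and the lowest in 17 of 32, beside 21.4% and 20.4% of groups over all 6591 genes. At 427 mg/kg-d, animal 97 had the highest Cd36 (6.33 in FROZ, 6.30 in FFPE) and animal 98 the lowest (5.12 and 3.30). Animal 98 was also the lowest of its dose in both tables for Acsl1 and Slc27a2. Control animal 8 had the lowest Fabp1 of the controls in both (11.59 and 11.48), and animal 74 the highest at 313 mg/kg-d (14.07 and 15.23).

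Other genes of the pathway had calls in both directions in FROZ. For uptake and binding at 427 mg/kg-d, the share called higher was near that of all genes. Of 9 listed uptake genes of 10, 2 were higher and 2 lower at 427 mg/kg-d, and 1 was higher and 3 lower after rescaling, where Slc27a5 joined the lower genes (-0.37, FDR 0.00285). As shares, the 2 and 2 genes stand beside the 22.7% of all genes that were higher and the 7.33% that were lower. Lipg, endothelial lipase, rose by 1.28 ± 0.22 (FDR 4.75e-05), from 2.07 to 3.10 (median 2.66) in controls to 3.35 to 4.52 (median 3.94), with no overlap. Got2, the mitochondrial aspartate aminotransferase also described as a plasma membrane fatty acid binding protein, rose by 0.33 ± 0.08 (FDR 0.00378), a call that was lost after rescaling (0.18, FDR 0.0970). Scarb1, the HDL receptor SR-BI, changed by -0.53 ± 0.13 (FDR 0.00196) and Lipc, hepatic lipase, by -0.42 ± 0.12 (FDR 0.00923), both lower. At 313 mg/kg-d 2 were higher and 3 lower, beside 20.5% and 6.15% of all genes. The third lower gene was Slc27a5, the bile acid-CoA ligase FATP5, at -0.40 ± 0.09 (FDR 0.00119). Slc27a5 falls outside the rule for naming genes and was named after its value was seen.

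Of 8 listed binding genes of 13, 2 were higher and 1 lower at 427 mg/kg-d, beside 22.7% and 7.33% of all genes. After rescaling 2 were higher and 3 lower, where 2847 of all 11275 genes were called and 50.0% of these calls were higher. Acbd3 (-0.20, FDR 0.0401) and Scp2 (-0.35, FDR 0.0190) then joined the lower genes and were named after their values were seen. Dbi, the acyl-CoA binding protein that carries the product of the ACSL enzymes, rose by 1.13 ± 0.08 (FDR 1.09e-10), from 9.10 to 9.46 (median 9.26) to 10.32 to 10.53 (median 10.40), with no overlap, and in FFPE by 1.19 ± 0.23 (FDR 0.00176). Acbd5, a peroxisomal acyl-CoA binding protein, rose by 0.83 ± 0.18 (FDR 0.000721). Fabp5, the epidermal fatty acid binding protein, was lower at 427 mg/kg-d (-0.97 ± 0.22, FDR 0.00112) and did not pass at 313 mg/kg-d (0.44 ± 0.22, FDR 0.138), and its step between these doses was -1.41 ± 0.22 (FDR 0.000348).

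Of 10 listed acyl-CoA synthetase genes of 14, 5 were higher and 1 lower at 427 mg/kg-d, beside 22.7% and 7.33% of all genes. After rescaling 4 were higher and 2 lower, beside the 2847 calls over all 11275 genes, of which 50.0% were higher. Acss3, a short-chain synthetase of mitochondria, rose by 2.09 ± 0.22 (FDR 3.19e-08) with no overlap, and Acsl3, the long-chain synthetase of lipid droplets, by 1.00 ± 0.17 (FDR 3.66e-05) with no overlap. Acsf3, a malonyl-CoA synthetase of mitochondria, rose by 0.69 ± 0.20 (FDR 0.00827), and Acsf2 by 0.43 ± 0.12 (FDR 0.00881), which was lost after rescaling (0.29, FDR 0.0699). Acsm2, a medium-chain synthetase of mitochondria, was at -1.10 ± 0.20 (FDR 9.77e-05), with all 427 mg/kg-d animals below all controls. The medians of the 3 lists at 427 mg/kg-d were -0.01 for uptake, 0.09 for binding and 0.33 for activation, beside 0.10 over all genes. In FFPE, Dbi was the 1 called gene of these lists at 427 mg/kg-d (Scp2 was also lower after rescaling, -0.56, FDR 0.0274), and Dbi (1.46 ± 0.23, FDR 0.000194) was higher and Scarb1 (-1.26 ± 0.30, FDR 0.0239) lower at 313 mg/kg-d.

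**Figure D4:**
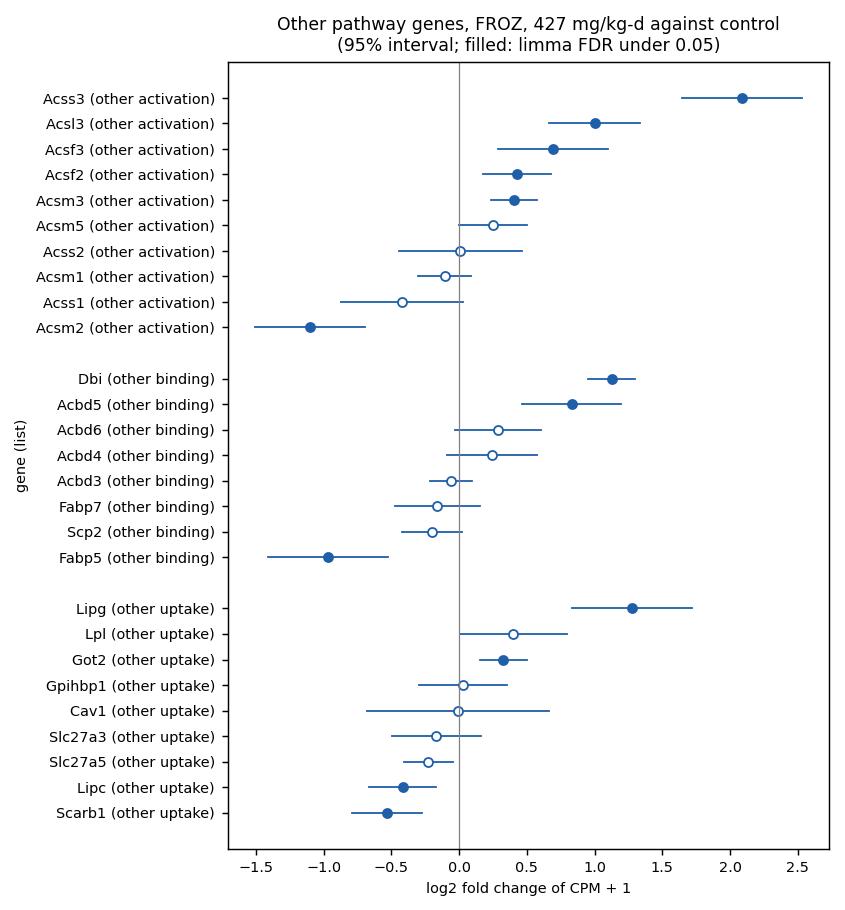
Log2 fold change of CPM + 1 at 427 mg/kg-d against controls in FROZ for the other listed uptake, binding and activation genes (vertical axis, gene with its list), with lines for the 95% interval and filled points for limma FDR under 0.05. Acss3, Lipg and Dbi lie above 1.00 and Acsl3 at about 1.00, and Acsm2, Fabp5, Scarb1 and Lipc are filled below 0.

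The libraries held 6.69 to 9.84 M reads on listed genes in FROZ (median 8.25 M) and 1.83 to 6.02 M in FFPE (median 4.71 M), estimated from the CPM of 1 read. The FFPE libraries of animals 49, 52 and 54, all at 198 mg/kg-d, had under 3 M, and without them the FFPE counts stayed at 0, 3 and 3 of 8. The hepatocyte markers were listed in FROZ for 6 of 7 genes (all but Tf) and in FFPE for 5 of 7 (all but Tf and Cps1), and summed to 21915 to 27689 CPM in FROZ controls and 19240 to 23454 CPM at 427 mg/kg-d. In FROZ at 427 mg/kg-d, Hnf4a was higher (0.45, FDR 0.00441) and Apob lower (-0.53, FDR 0.00186), beside 22.7% and 7.33% of all genes. After rescaling none was higher and 3 of 6 (Apoa1, Apob and Cps1) were lower, where 50.0% of the 2847 calls over all genes were higher. The 4 listed pancreatic acinar markers summed to at most 38.5 CPM in any FROZ library, and none of them was called.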

How the data were processed

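TempO-Seq libraries of 24 mice, 1 FROZ and 1 FFPE each, were grouped by dose from the sample labels. The authors aligned reads to mm10 with STAR (2.6, per the submitters' processing notes) in Partek, counted them on transcripts by expectation maximization, removed genes of low geometric mean, scaled the rest to CPM and deposited log2(CPM + 1), separately for FROZ and FFPE. Levels were therefore not tested between tables. The study also holds RNA-Seq libraries, which were not analysed here.

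From these values, contrasts between dose groups, slopes on dose and the FFPE minus FROZ effect were fitted with limma 3.58.1 (R 4.3.3) with a mean-dependent variance prior, over all genes of a table and its 24 libraries, with two-sided p-values and the Benjamini-Hochberg FDR over all genes. A gene was called at FDR under 0.05 and was a DEG if its fold change was also above 2. The FFPE minus FROZ effect used each animal as a block. Pairing rests on the animal number in the labels, and over 4815 genes a FROZ and an FFPE library, each taken relative to its group mean, correlated with a median r of 0.128 within an animal and -0.0232 between animals of a dose, with 21 of 24 animals closest to themselves. The CPM of 1 read was estimated from the steps of low values, which fell within 0.05 of a whole read for 96.2 to 97.0% of low FROZ values and 72.6 to 95.0% of low FFPE values. Reads carry no molecular identifiers. Fits were tested on simulated data.

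The 10 members and the pathway and marker lists were chosen with earlier results of these data known. Every member was named. Of each pathway list, up to 5 genes with the largest change among those called at 427 mg/kg-d in FROZ were named. Gene positions and shared windows of 50 bases came from GENCODE vM21 (GRCm38), the same build as mm10. Alternatives were other offsets (0.1 and 5 CPM), a filter at a mean of 10 CPM, median-ratio scaling, CPM over the genes of both tables, another variance prior, array weights, fits of only the groups compared, ranks of dose, no replicate block, leaving out each animal and, chosen after seeing the data, leaving out FFPE libraries under 3 M reads.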

Additional observations from a re-analysis of the deposited data

Results flagged for a closer look

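A sample was marked when its gap to the nearest of the other 5 was large against the range of its group (Dixon's 95% critical value for 6 samples), which chance alone does in about 5% of groups. Of 68 groups of a gene, table and dose, 9 had such a sample. All values are log2(CPM + 1).

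Animal 5 stood above the other FROZ controls for Cd36 at 4.36, where the next was 3.31. Animal 97 stood above the other FROZ mice at 427 mg/kg-d for Cd36 at 6.33, where the next was 5.42. Animal 8 stood below the other FROZ controls for Fabp1 at 11.59, where the next was 12.48. At 198 mg/kg-d in FROZ, Fabp4 of animal 52 was at 7.29 with the next at 4.93, and Slc27a2 of animal 49 was at 10.53 with the next at 10.22. At 313 mg/kg-d in FROZ, Slc27a2 of animal 78 was at 10.41 with the next at 10.90. In FFPE, Cd36 is listed at 0 for animal 75 at 313 mg/kg-d with the next at 4.40. Animal 49, the FFPE library with the fewest reads, is listed at 0 for Acsl5, with the next at 5.42, and was at 1.06 for Fabp2, with the next at 6.09.

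The 3 genes that lay farthest above all other FROZ libraries in animal 52 were Prkar2b (3.79, next 1.39), Fabp4 (7.29, next 5.51) and Arxes2 (1.80, next 0.72), and they were looked up after the Fabp4 value was seen.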

How the results depend on the processing

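No result reversed. Leaving out 1 animal at a time, the genes called at 198, 313 and 427 mg/kg-d numbered 0 to 0, 6 to 7 and 6 to 7 of 9 in FROZ and 0 to 0, 2 to 3 and 3 to 3 of 8 in FFPE. In FROZ the step from 313 to 427 mg/kg-d held 0 to 1 calls, and 0 without animal 101 (Acsl1). In FFPE the step from 198 to 313 mg/kg-d held 1 to 3 calls, and 1 without animal 74, and the step from 313 to 427 mg/kg-d held 0 to 1 DEGs, with Acsl1 a DEG without animal 74 or 98. With a variance prior that does not follow the mean, 1 gene in place of 3 was called in FFPE at 313 mg/kg-d, since Acsl1 (FDR 0.227) and Slc27a2 (FDR 0.102) missed the threshold; the cause was not tested. Over its 20 alternatives the FDR of Acsl1 there ran from 0.00509 to 0.227, and 11 of them lost the call. Slc27a1 at 427 mg/kg-d in FROZ passed with an offset of 5 CPM (FDR 0.0328), with array weights (0.0464) and with only the groups compared (0.0297), and its trend passed with ranks of dose (0.0472). Fabp2 at 313 mg/kg-d in FROZ also passed, as lower, without control animal 8 (-0.46, FDR 0.0466).

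Without the replicate block the paired comparison of FROZ and FFPE gave the same 0 of 8 genes at each dose, with 1, 1 and 2 of 6591 genes called in place of 2, 0 and 2. The animal as a block changed no call of a member.

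In FFPE, Cd36, Slc27a1, Fabp2 and Acsl5 have libraries at 0 or at 2 reads, which widens their intervals. These were not always the shallow libraries: Slc27a1 is at 0 in animal 7 (5.82 M reads) and had 101 reads in animal 49 (1.83 M, the fewest). In FROZ, Acsl4 and Slc27a1 rest on at most 14 and 40 reads per library. Reads were estimated from the step of low values and intervals cover the spread between animals only.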
